A study of Rattus norvegicus with 8 samples.

Results

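Integrins are receptors in the cell membrane that hold a cell to the matrix around it. Each receptor pairs 1 alpha with 1 beta chain; the alpha chain largely sets which matrix protein is bound, and the tail of the beta chain links through talin and kindlin to actin. In the periodontal ligament, the tissue that slings a tooth root to its bone, fibroblasts grip collagen fibres through such receptors while teeth erupt and take load. The 10 subunit genes described here were listed by name: the collagen-binding alpha chains Itga1, Itga2 and Itga11, the laminin-binding chain Itga3, the chains Itga5, Itga8 and Itgav of receptors for the RGD motif of fibronectin, vitronectin or osteopontin, and the beta chains Itgb1, Itgb3 and Itgb5. Of these 10, 7 had a row among the 17337 genes of the count table, and 6 passed the filter on low counts and were tested. Itga8 had a row but too few counts for the test. Itga2, Itga3 and Itgav were not analysed here.

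RNA sequencing was done on cervical periodontal ligament cut out by laser from untreated rats (Rattus norvegicus) that had grown normally, 4 animals at postnatal day 18 (P18) and 4 at postnatal day 28 (P28). The study set these ages against each other because the teeth come into occlusal contact between them. The labels give neither strain nor sex, so each age group is described by its age alone, and each library was taken as 1 animal. A capture of this kind holds all cells of the cut area, so fewer cells of a type and less RNA per cell cannot be told apart.

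Total counts ran from 10863769 to 26645656 at P18 and from 5252693 to 17803006 at P28, with P28 replicate 4 the shallowest. Levels are given as CPM, counts scaled to library size and corrected between libraries, and a gene was called at an adjusted p under 0.05 in the edgeR quasi-likelihood test over all 10472 tested genes. Summed ligament fibroblast markers (12 of 12 listed genes in the table) were mostly Col1a1, Col3a1 and Postn. They ran from 96316 to 137880 CPM at P18 and from 139390 to 196600 CPM at P28. Aspn, a proteoglycan of ligament, lay at or near 0 in every library. Col1a2, the other chain of collagen I, lay at 10.8 to 44.2 CPM beside Col1a1 at 37290 to 82845 CPM. Whether rows near 0, or as low as that of Col1a2, reflect little RNA was not tested. Markers of other cells were present. Summed epithelial markers reached 5565 CPM in P28 replicate 2 against 30.6 to 1220 CPM in the other libraries, and osteoclast markers reached 5737 and 8073 CPM in P28 replicates 1 and 3 against 1193 to 2166 CPM in the others. Enamel organ markers ran from 15.1 to 4843 CPM at P18 and from 5.62 to 638 CPM at P28. The highest P28 sum, in replicate 3, was mostly Odam (630 CPM). Of 4 tested enamel organ markers, edgeR called 2 lower at P28 and 0 higher (all tested genes: 0.42% and 0.516%). They were Ambn and Amtn (edgeR's adjusted p = 0.0204 and 0.0188). Ambn ran from 9.72 to 2329 CPM at P18 and from 1.06 to 4.58 CPM at P28. The part of these other cells in the integrin levels was not tested beyond the values set beside them.

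The upstream sequence is shown for 2 genes, Itga11 and Itga10, the collagen-binding alpha chains whose levels differed in opposite directions between the ages. Itga10 is outside the 10 genes and was picked for this after its values were seen. Each is the 250 bases before the gene's start from RefSeq (build GRCr8, not the rn6 build of the counts), on the plus strand, at chr8:72041182-72041431 for Itga11 and chr2:186871461-186871710 for Itga10. Capitals mark matches to any of 6 searched motifs.
Itga11: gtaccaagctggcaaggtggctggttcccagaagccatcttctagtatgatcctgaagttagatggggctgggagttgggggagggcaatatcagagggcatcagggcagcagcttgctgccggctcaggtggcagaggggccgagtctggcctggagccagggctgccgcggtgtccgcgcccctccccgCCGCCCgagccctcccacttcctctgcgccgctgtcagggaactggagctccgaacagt
Itga10: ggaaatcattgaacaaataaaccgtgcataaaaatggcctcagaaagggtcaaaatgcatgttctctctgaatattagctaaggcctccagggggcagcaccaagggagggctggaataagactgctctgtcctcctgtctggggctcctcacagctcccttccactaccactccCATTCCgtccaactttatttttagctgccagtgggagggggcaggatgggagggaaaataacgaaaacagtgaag
The motifs, read on both strands, were GTGGGAA (RBPJ, the DNA-binding partner of Notch), GGAATG (TEAD), TGANTCA (AP-1), GGGCGG (Sp1), TGTGGT (RUNX) and the CArG box of SRF. The Itga11 window is 65.2% G and C and holds 1 Sp1 match on the minus strand, beginning 59 bases before the start; 30.5% of the 33469 RefSeq windows of this length hold that motif. The Itga10 window is 49.6% G and C and holds 1 TEAD match on the minus strand, beginning 75 bases before the start, a motif found in 12.1% of all windows. Of the 10 listed genes 9 had a window. The RBPJ motif was in 1 of the 9, that of Itga1, and in 5.27% of all windows. Sp1 was in 6 of the 9 and TEAD in 2. AP-1, RUNX and the CArG box (6.34%, 14.5% and 1.5% of all windows) were in 0. Matches are letters in a window and say nothing of whether a factor binds there.

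No integrin subunit of the list passed the test between P18 and P28. Of the 6 tested genes 0 were called higher and 0 lower by edgeR, where 0.516% of all tested genes were called higher and 0.42% lower. All 6 had a log2 fold change (P28 over P18) below 0, as did 49.7% of all tested genes (50.3% lay above 0), and their median was -0.64 against 0.01 over all. With 6 genes, read from the same 8 libraries, this is a description of the list. In 1 of the 6, Itga11, every P28 library was lower than every P18 library; of all tested genes 5.54% did not overlap with P28 lower and 4.91% with P28 higher. At an unadjusted p under 0.05, 1 of the 6 was lower and 0 higher, against 7.1% and 7.45% of all genes. The DESeq2 Wald test called 1 of the 6, Itga11, lower, and 0 higher, where it called 2.52% of all genes lower and 2.79% higher.

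**Figure D1:**
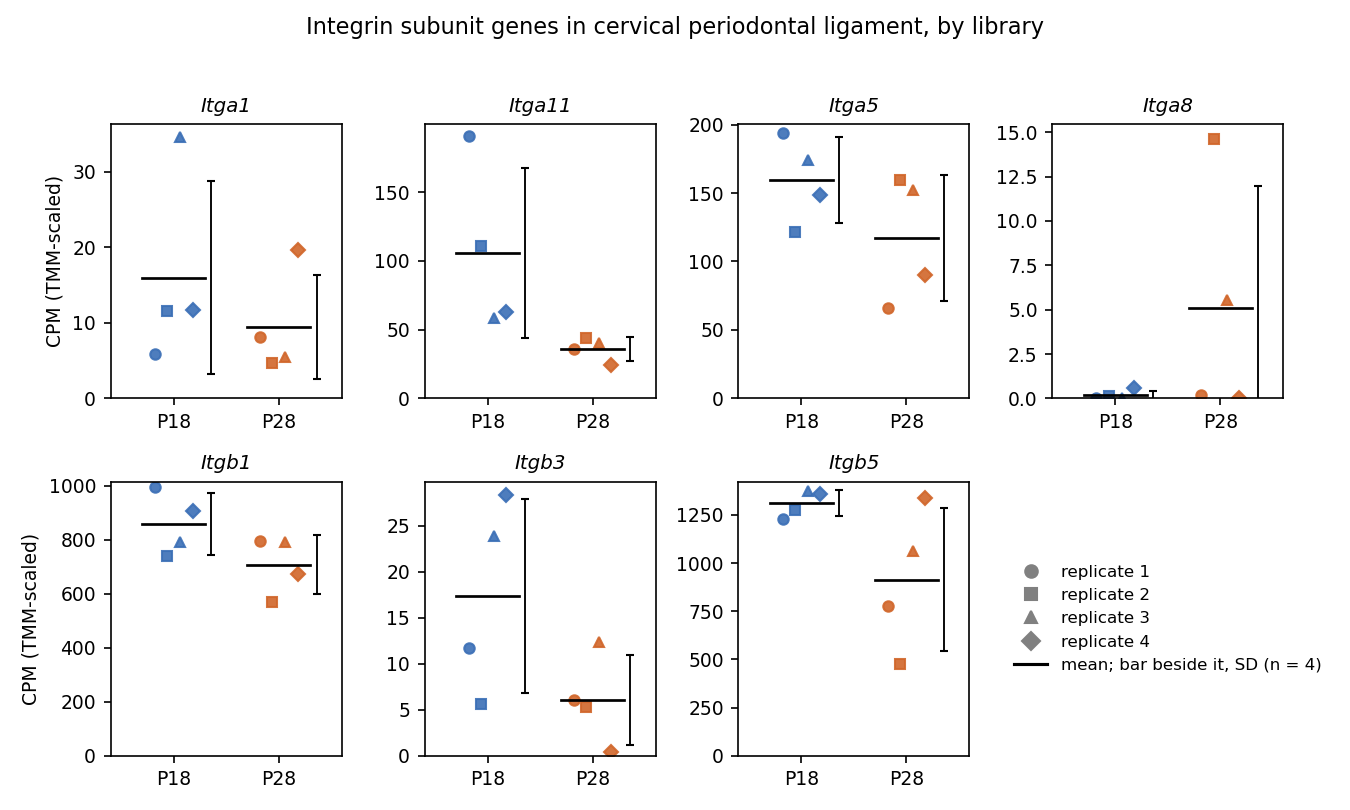
Level of 7 integrin subunit genes in each library (y axis: CPM, from 0, with its own range in each panel, x axis: age). Each replicate number has 1 symbol, and the labels do not say that it links animals. Horizontal lines are means and vertical bars SD (n = 4, cut at 0). Only for Itga11 do all 4 P28 libraries lie below all 4 P18 libraries, and Itga8 is seen mainly in P28 replicates 2 and 3.

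Itga11 encodes the alpha-11 chain, a receptor for fibrillar collagen found on fibroblasts, and mice that lack it are known for poor incisor eruption. It lay at 191, 111, 58.7 and 62.6 CPM over P18 replicates 1 to 4 and at 36.3, 44.2, 40.3 and 24.1 CPM over P28 replicates 1 to 4. The highest P28 library thus lay below the lowest P18 library, while P18 itself spanned a wide range led by replicate 1. The means were 106 ± 61.6 CPM at P18 and 36.2 ± 8.68 CPM at P28 (SD, n = 4 per age). The log2 fold change was -1.54 ± 0.39 (SE), with edgeR's adjusted p at 0.0890, so it did not pass, though it ranked 213 by p among the 10472 genes. Without P18 replicate 1 the log2 fold change was -1.09 (adjusted p = 0.166). In the 8 leave-one-out fits it stayed between -1.76 and -1.09 with adjusted p from 0.0982 to 0.218, so none called it. The DESeq2 Wald test called it (log2 fold change -1.55, adjusted p = 0.00808), and limma with voom did not (-1.16, adjusted p = 0.138). Fibroblast markers differed among themselves. Of 11 tested, 10 had a log2 fold change above 0 and 1 below, where 50.3% of all tested genes lay above 0. The sum above, mostly collagen and periostin, was somewhat higher in each P28 library than in any P18 library. Lum and Pdgfra had log2 fold changes of 0.04 and 0.09. Fmod was higher at P28 (2.97, edgeR's adjusted p = 0.0264). The ligament marker Tnmd, the 1 below 0, was lower (-2.43, edgeR's adjusted p = 0.00608).

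Itga1 encodes the alpha-1 chain, which binds collagen IV as well as fibrillar collagen and is also found on vessel wall muscle. It lay at 5.88, 11.6, 34.6 and 11.7 CPM over P18 replicates 1 to 4 and at 8.10, 4.70, 5.46 and 19.6 CPM over P28 replicates 1 to 4. The ages overlapped, and 1 library stood above the others at each age, P18 replicate 3 and P28 replicate 4. The log2 fold change was -0.76 ± 0.77 (edgeR's adjusted p = 0.703). It was -0.05 without P18 replicate 3 and -1.39 without P28 replicate 4, so its size rested on those 2 libraries. Summed mural cell markers (9 of 9 in the table) were highest at P18 in replicate 3, at 1063 CPM, but lowest of all in P28 replicate 4, at 479 CPM.

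Among receptors for fibronectin and other RGD ligands, Itga5, the alpha-5 chain of the main fibronectin receptor, lay at 194, 122, 174 and 148 CPM over P18 replicates 1 to 4. Over P28 replicates 1 to 4 it lay at 66.3, 160, 152 and 89.9 CPM. P28 replicates 1 and 4 lay below every P18 library, and replicates 2 and 3 lay within the P18 range. The means were 160 ± 31.4 and 117 ± 46.1 CPM (SD, n = 4 per age), with a log2 fold change of -0.45 ± 0.29 (edgeR's adjusted p = 0.523). Endothelium also carries this chain. Summed endothelial markers (9 of 9 in the table) ran from 850 to 1229 CPM at P18 and from 1106 to 1751 CPM at P28. Single markers went both ways, with 4 log2 fold changes above 0 and 5 below (all tested genes: 50.3% and 49.7%). Those of Pecam1 and Egfl7 were both 0.95, that of Cdh5 was -0.91, and the median over the list was -0.21. The part of endothelium in the Itga5 level was not tested.

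Itga8 encodes the alpha-8 chain, a receptor for nephronectin and other RGD ligands that is known from mesenchyme and contractile cells. Its counts were 0, 3, 0 and 11 over P18 replicates 1 to 4 and 3, 140, 68 and 0 over P28 replicates 1 to 4. In CPM the P28 libraries lay at 0.176, 14.6, 5.55 and 0, and no P18 library was above 0.560. A count of 0 allows up to 0.271 and 0.128 CPM in P18 replicates 1 and 3 and 0.624 CPM in P28 replicate 4, a limit that covers counting error only. Itga8 was therefore detected beyond a few counts in 3 of 8 libraries, and the ages overlapped. It was below the filter on low counts; with no filter its adjusted p was 0.303. P28 replicate 2, where it was highest, also held the highest summed mural (1200 CPM) and epithelial (5565 CPM) markers. P28 replicate 3, next for Itga8, had sums of 639 CPM (mural) and 1220 CPM (epithelial). P18 replicate 3, with 0 counts of Itga8, had a mural sum of 1063 CPM. The part of those cells in the Itga8 level was not tested.

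The beta chains come next. Itgb1, the partner of all the collagen-binding alpha chains, differed little between libraries. It lay at 994, 740, 791 and 908 CPM over P18 replicates 1 to 4 and at 797, 570, 791 and 674 CPM over P28 replicates 1 to 4. The ages overlapped, with means of 858 ± 115 and 708 ± 108 CPM (SD, n = 4 per age). The log2 fold change was -0.28 ± 0.18 (edgeR's adjusted p = 0.528), between -0.35 and -0.18 leaving out 1 library.

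Itgb5, which pairs with alpha-v to bind vitronectin, had the tightest P18 group of the 7 genes relative to its mean. It lay at 1231, 1277, 1372 and 1361 CPM over P18 replicates 1 to 4, but at 778, 478, 1064 and 1338 CPM over P28 replicates 1 to 4. The spread between animals was thus wider at P28 (SD 370 CPM) than at P18 (SD 67.6 CPM); this difference in spread was not tested. P28 replicates 1 to 3 lay below every P18 library and replicate 4 lay within the P18 range. The log2 fold change was -0.52 ± 0.27 (edgeR's adjusted p = 0.403). It was -0.76 without P28 replicate 4 (adjusted p = 0.135) and -0.30 without P28 replicate 2 (adjusted p = 0.5). P28 replicate 2, the lowest, was the library with the most epithelial RNA by its markers (5565 CPM). P28 replicate 1, the next lowest, had an epithelial sum of 340 CPM, less than P18 replicate 1 with 645 CPM and Itgb5 at 1231 CPM. The part of epithelium in the Itgb5 level was not tested.

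Itgb3, the other vitronectin-binding partner of alpha-v, is best known from osteoclasts and platelets. It lay at 11.7, 5.62, 23.9 and 28.4 CPM over P18 replicates 1 to 4 and at 6.05, 5.33, 12.4 and 0.416 CPM over P28 replicates 1 to 4, where the last value rests on 2 counts. The ages overlapped, and both groups spread widely (17.4 ± 10.6 and 6.05 ± 4.92 CPM; SD, n = 4 per age). The log2 fold change was -1.51 ± 0.91 (edgeR's adjusted p = 0.491), -1.13 without P28 replicate 4 and -2.13 without P28 replicate 3. Summed osteoclast markers (9 of 11 in the table) ran from 1570 to 1813 CPM at P18 and from 1193 to 8073 CPM at P28, so they reached higher at P28 while Itgb3 averaged lower. Of 7 tested osteoclast markers, 7 had a log2 fold change above 0 (all tested genes: 50.3%). EdgeR called 1 of them higher, Acp5 (adjusted p = 0.0494), and 0 lower (all tested genes: 0.516% and 0.42%). Within each age, the library with the highest sum (P18 replicate 4 with 1813 CPM, P28 replicate 3 with 8073 CPM) also had the most Itgb3. The remaining libraries did not follow this order. P18 replicates 1 to 3 had nearly equal sums (1570, 1571 and 1573 CPM) with Itgb3 at 11.7, 5.62 and 23.9 CPM. Those 3 sums were mostly the 1 gene Ctsk (1351, 1371 and 1410 CPM). In the same libraries Acp5 lay at 131, 67.9 and 57.5 CPM and Atp6v0d2 at 0.0904, 1.91 and 18.2 CPM. P28 replicates 1 and 2 had sums of 5737 and 1193 CPM with Itgb3 at 6.05 and 5.33 CPM. The part of osteoclasts in the Itgb3 level was not tested. Of the 6 platelet markers in the table, Gp1bb was at 0 in every library, and Gp1ba, Ppbp and Treml1 were at most 0.940 CPM. Gp9 reached 4.07 CPM in P28 replicate 2 and at most 0.489 CPM in the other libraries. Only the platelet chemokine Pf4 was higher throughout, between 12.6 and 49.0 CPM.

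**Figure D2:**
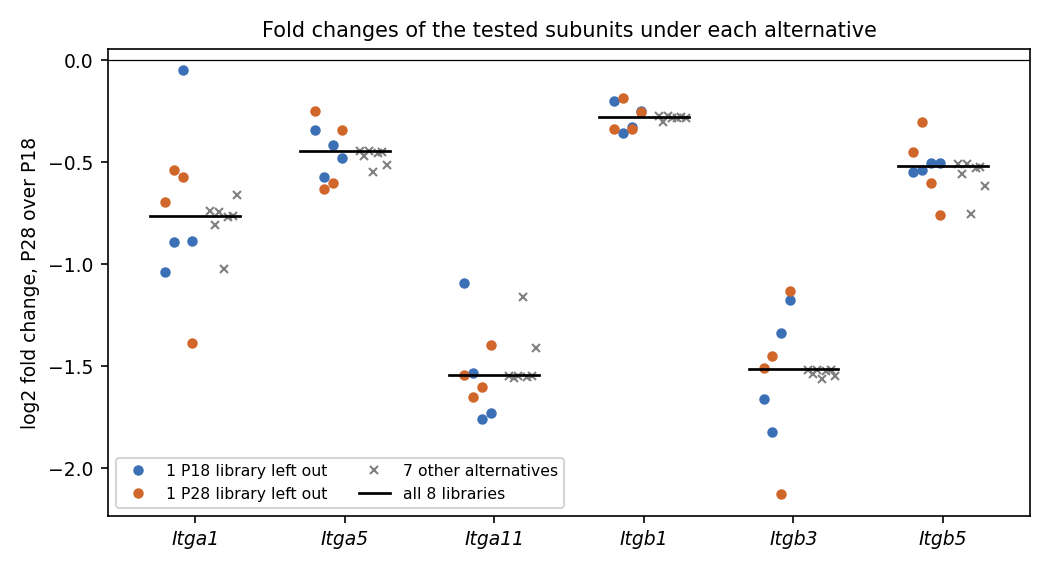
Log2 fold change (P28 over P18, y axis) of the 6 tested subunits with all 8 libraries (line), with each library left out in turn (8 points) and under 7 other settings (crosses). All values lie below 0, those of Itga1 run from -1.39 to -0.05, and those of Itga11 from -1.76 to -1.09.

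A ratio of 2 genes inside a library does not depend on how libraries are scaled, so each alpha chain was also set against its partner Itgb1. The log2 ratio of Itga11 to Itgb1 counts was -2.38, -2.74, -3.75 and -3.86 over P18 replicates 1 to 4 and -4.46, -3.69, -4.29 and -4.80 over P28 replicates 1 to 4. P28 replicate 2 lay inside the P18 range, so on this scale the ages overlapped. The mean ratio was -3.18 ± 0.74 at P18 and -4.31 ± 0.46 at P28 (SD, n = 4 per age), a difference of -1.13. For Itga5 the difference in mean log2 ratio was -0.24, for Itga1 -0.40 and for Itga8 3.93, with overlap in each. Single libraries decided the sign of the first 2: it was 0.07 for Itga5 without P28 replicate 1 and 0.11 for Itga1 without P18 replicate 3. The Itga8 difference ran from 2.60 to 5.06 leaving out 1 library. In all, 0 of the 4 alpha chains had a ratio that did not overlap, where 1.59% of all tested genes did not overlap with P28 lower and 10.4% with P28 higher. With Itgav not analysed here, Itgb3 and Itgb5 were set against Itgb1 instead, a choice made after the data were seen, and their differences were -1.65 and -0.34, with overlap.

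The other integrin subunits, from a list of 16, show how the listed genes sit in the family. Of these 13 had a row and 10 were tested, with 0 called by edgeR in either direction, 5 log2 fold changes above 0 and 5 below, and a median of 0.07. An unadjusted p under 0.05 was found for 3 higher and 1 lower, against 7.45% and 7.1% of all tested genes. Of all tested genes, edgeR called 0.516% higher and 0.42% lower, and 50.3% had a log2 fold change above 0. Itga10, the collagen-binding alpha-10 chain best known from cartilage, lay at 20.5, 34.9, 3.24 and 12.5 CPM over P18 replicates 1 to 4. It lay at 163, 111, 71.4 and 48.5 CPM over P28 replicates 1 to 4, every one above the highest P18 library. Its log2 fold change was 2.47 ± 0.61 (edgeR's adjusted p = 0.0840). It did not pass in any of the 8 leave-one-out fits (adjusted p from 0.0551 to 0.217), while the DESeq2 Wald test (adjusted p = 0.00127) and limma with voom (0.0244) called it.

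The pair of collagen-binding chains Itga10 and Itga11 thus differed in opposite directions between the ages, neither passing the edgeR test. The log2 ratio of Itga10 to Itga11 counts, chosen after the values were seen and so given as a description, was -3.22, -1.67, -4.17 and -2.32 over P18 replicates 1 to 4. It was 2.16, 1.33, 0.82 and 1.00 over P28 replicates 1 to 4. Itga11 had more counts than Itga10 in all 4 P18 libraries and fewer in all 4 P28 libraries. Gene length was not taken into account, so the ratio shows the change between ages and not which chain was the more abundant transcript. The difference of the means was 4.17, and 3.73 to 4.56 leaving out 1 library.

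**Figure D3:**
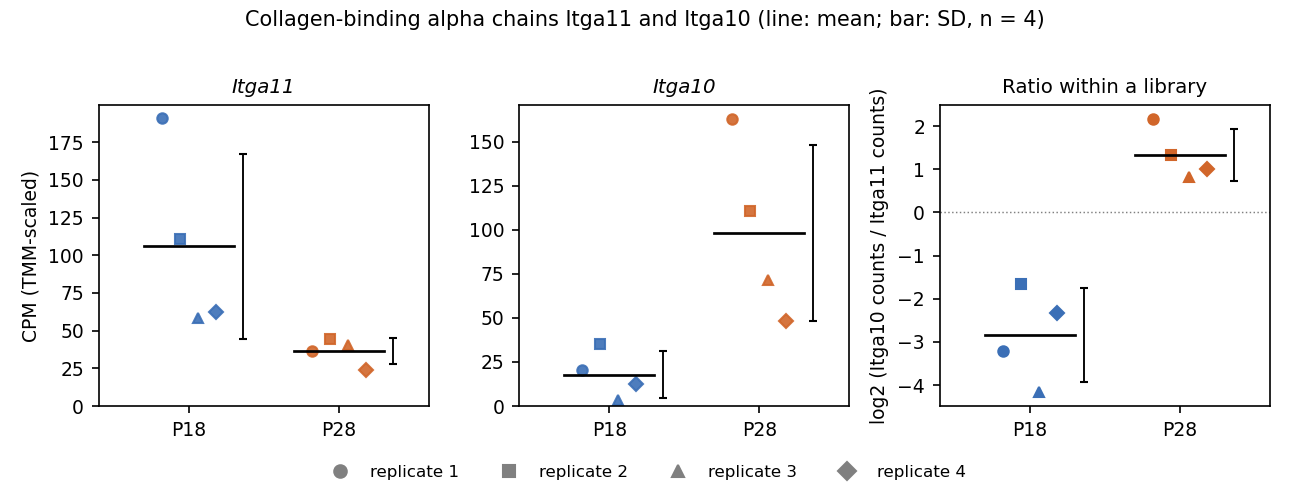
Itga11 and Itga10 in CPM by library (y axes from 0) and the log2 ratio of their counts within each library (right; dotted line: equal counts). Horizontal lines are means and vertical bars SD (n = 4). The ratio lies between -4.17 and -1.67 at P18 and between 0.82 and 2.16 at P28.

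Itgb4, the beta-4 chain of hemidesmosomes, averaged 33.4 ± 17.8 CPM at P18 and 105 ± 54.0 CPM at P28 (SD, n = 4 per age), without overlap. Its log2 fold change was 1.65 ± 0.51 (edgeR's adjusted p = 0.147), and the DESeq2 Wald test called it (0.0272). It was highest in P28 replicates 3 and 2 (173 and 121 CPM). These had the highest summed epithelial markers (1220 and 5565 CPM), a list that includes Itgb4 itself. The other libraries did not follow the sums: P28 replicate 4 had 52.8 CPM of Itgb4 at a sum of 112 CPM. P18 replicate 1 had 34.1 CPM of Itgb4 at a sum of 645 CPM. The part of epithelium in the Itgb4 level was not tested. Itga4, the alpha-4 chain of a receptor for fibronectin and VCAM-1 best known from leukocytes, lay at 19.6, 9.69, 13.9 and 8.40 CPM over P18 replicates 1 to 4. It lay at 0.529, 4.49, 0.245 and 0 CPM over P28 replicates 1 to 4, below every P18 library, with a log2 fold change of -3.27 ± 1.29 (edgeR's adjusted p = 0.259) that was -5.46 without P28 replicate 2. Its P28 libraries alone would not have passed the filter on low counts. Summed neutrophil markers ran from 36.1 to 940 CPM at P18 and from 24.97 to 272 CPM at P28, and macrophage and leukocyte markers from 344 to 651 and from 411 to 1170 CPM. Itgae, the alpha-E chain of lymphocytes, had a log2 fold change of 0.82 ± 0.36 (edgeR's adjusted p = 0.316). Itgal, Itgb2 and Itgb7, also of leukocytes, each overlapped between the ages.

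**Figure D4:**
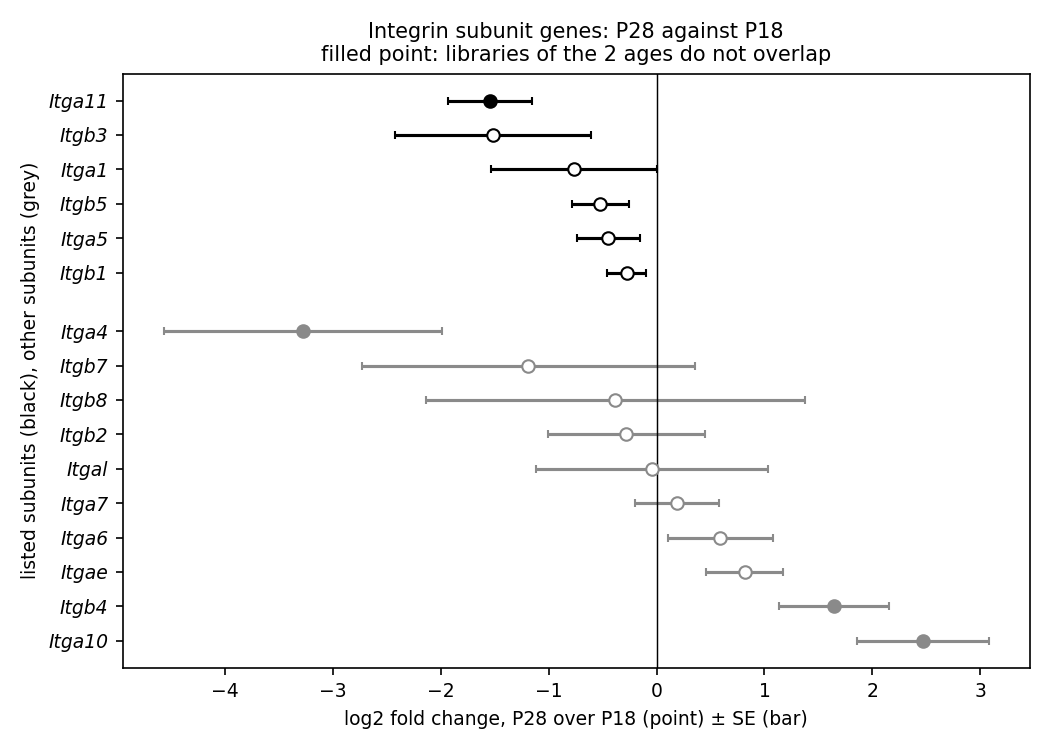
Log2 fold change (P28 over P18, x axis) with SE for the 6 tested listed subunits (black) and 10 other tested subunits (grey); filled points mark genes whose libraries do not overlap between the ages. The listed subunits lie between -1.54 and -0.28, and the others between -3.27 and 2.47.

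Collagen genes, the ligands of alpha-1, alpha-10 and alpha-11, lay mostly higher at P28. Of 15 listed, 11 had a row and 10 were tested. Of these, 2 were called higher and 0 lower by edgeR (all tested genes: 0.516% and 0.42%). Log2 fold changes above 0 numbered 9, that of the low Col1a2 row among them (all tested genes: 50.3%). The median was 0.70 (all tested genes: 0.01). Col5a3, a minor chain of collagen V, rose from 71.5 ± 19.4 to 239 ± 66.6 CPM (log2 fold change 1.74 ± 0.27, edgeR's adjusted p = 0.0180). Col6a2, a chain of the pericellular collagen VI, rose from 701 ± 107 to 1382 ± 294 CPM (0.98 ± 0.20, adjusted p = 0.0457). These calls ended in 4 and 6 of the 8 leave-one-out fits (edgeR's adjusted p up to 0.0738 and 0.192): both with any of P18 replicates 2 and 3 and P28 replicates 1 and 3 removed, and that of Col6a2 also with P18 replicate 1 or 4 removed. Col3a1 and Col11a1, fibril-forming chains, had log2 fold changes of 0.69 ± 0.22 and 0.78 ± 0.29 (edgeR's adjusted p = 0.171 and 0.238).

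Ligands other than collagen went both ways. Of 28 listed, 22 were tested, with 0 called by edgeR (all tested genes: 0.516% higher and 0.42% lower). At an unadjusted p under 0.05, 5 were higher and 2 lower (all tested genes: 7.45% and 7.1%). Among the ligands named here, the DESeq2 Wald test called Fn1, Spp1, Ibsp, Tnc and Fbln5 and did not call Postn and Tgfbi. Over all genes that test called 2.79% higher and 2.52% lower. Ibsp, Fbln5, Spp1 and Tnc had the lowest edgeR p of this list in the same data. Calls among them therefore cannot be read against the share of all genes. Fn1, fibronectin, the ligand of the alpha-5 receptor, lay at 819, 560, 440 and 365 CPM over P18 replicates 1 to 4 and at 983, 1141, 1193 and 684 CPM over P28 replicates 1 to 4. Only P18 replicate 1 reached into the P28 range, and the log2 fold change was 0.87 ± 0.27 (edgeR's adjusted p = 0.144), while that of Itga5 was below 0. Spp1 (osteopontin) and Ibsp (bone sialoprotein), RGD ligands of the alpha-v receptors, were higher in every P28 library than in any P18 library, with log2 fold changes of 2.95 ± 0.65 and 1.34 ± 0.29 (edgeR's adjusted p = 0.0579 and 0.0523). Summed osteoblast and cementoblast markers, a list that holds both genes, ran from 3872 to 5928 CPM at P18 and from 5815 to 10358 CPM at P28. Ibsp was a large part of that sum, at 1250 to 2715 CPM at P18 and 2726 to 5891 CPM at P28. Of the 8 markers, 5 had a log2 fold change above 0 (all tested genes: 50.3%). The 3 below 0 were Alpl (-0.35), Sp7 (-0.31) and Runx2 (-0.05).

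Tnc, tenascin-C, a matrix protein bound by alpha-8, alpha-9 and alpha-v receptors, lay at 121, 111, 83.0 and 56.6 CPM over P18 replicates 1 to 4. Over P28 replicates 1 to 4 it lay at 31.8, 32.0, 25.035 and 4.58 CPM, without overlap. Its log2 fold change was -1.98 ± 0.50 (edgeR's adjusted p = 0.0881), and it was called without P28 replicate 4 (-1.65, adjusted p = 0.0341). Fbln5, an RGD protein of elastic fibres, also did not overlap, at 64.0 to 161 CPM at P18 and 7.91 to 33.01 CPM at P28 (log2 fold change -2.20 ± 0.48, edgeR's adjusted p = 0.0540). Postn and Tgfbi, related ligands rich in the ligament, had log2 fold changes of 0.44 ± 0.24 and -0.61 ± 0.37 (edgeR's adjusted p = 0.433 and 0.494).

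Among proteins that switch integrins on or off, 0 were called by edgeR (all tested genes: 0.516% higher and 0.42% lower). An unadjusted p under 0.05 was found for 1 higher and 2 lower (all tested genes: 7.45% and 7.1%). Of 16 listed, 15 had a row and 14 were tested; 8 log2 fold changes were above 0 and 6 below. Fermt2, kindlin-2, which activates integrins from within, lay at 262 to 330 CPM at P18 and 307 to 338 CPM at P28 (log2 fold change 0.06 ± 0.17, edgeR's adjusted p = 0.914). Tln1, talin-1, had a log2 fold change of 0.27 ± 0.24 (edgeR's adjusted p = 0.665). Those with the lowest p were Dab2, an endocytic adaptor of beta chains (-0.80 ± 0.26), Rap1b, a small GTPase upstream of talin (-0.96 ± 0.35), Flna, an actin crosslinker that binds beta tails (0.70 ± 0.27), and Fermt1, the kindlin of epithelium (2.54 ± 1.32), with edgeR's adjusted p of 0.171, 0.219, 0.248 and 0.412.

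The adaptors that join the beta tail to actin and to kinases also held no calls among 19 tested (all tested genes: 0.516% higher and 0.42% lower). Log2 fold changes were above 0 for 8 and below for 11 (all tested genes: 50.3% and 49.7%), with a median of -0.19. At an unadjusted p under 0.05, 1 was higher and 4 were lower (all tested genes: 7.45% and 7.1%). Lims1, PINCH-1, the partner of integrin-linked kinase, lay at 138, 168, 167 and 139 CPM over P18 replicates 1 to 4. It lay at 81.7, 90.5, 47.7 and 51.6 CPM over P28 replicates 1 to 4, all below the P18 libraries. Its log2 fold change was -1.17 ± 0.25 (edgeR's adjusted p = 0.0540). It was called in 1 of 8 leave-one-out fits, without P28 replicate 2 (-1.33, adjusted p = 0.0366). Of the 7 other settings 3 called Lims1. They were the DESeq2 Wald test (adjusted p = 0.00248), limma with voom (0.0313) and edgeR with no filter (0.0437). Ptk2, focal adhesion kinase, was also lower without overlap, at 146 to 177 CPM at P18 and 70.4 to 130 CPM at P28 (log2 fold change -0.65 ± 0.23, edgeR's adjusted p = 0.193). The other 2 parts of the kinase complex, Ilk and Parva (alpha-parvin), had log2 fold changes of -0.37 ± 0.23 and -0.80 ± 0.31, and Tns3, a tensin, one of 0.87 ± 0.28 (edgeR's adjusted p = 0.504, 0.247 and 0.162).

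Of 16 tested membrane partners and trafficking genes, 1 was called higher and 0 lower by edgeR (all tested genes: 0.516% and 0.42%). The called gene was Cd9, a tetraspanin that sits beside beta-1 integrins in the membrane. It rose from 578, 702, 663 and 772 CPM over P18 replicates 1 to 4 to 1623, 1575, 1605 and 1545 CPM over P28 replicates 1 to 4. The 4 P28 libraries lay close together and far above every P18 library. The log2 fold change was 1.23 ± 0.16 (edgeR's adjusted p = 0.00681). It was called in 7 of the 8 leave-one-out fits, the exception being P18 replicate 2 (adjusted p = 0.0577). Plaur, the urokinase receptor, which associates with integrins, was higher in every P28 library than in any P18 library (log2 fold change 1.17 ± 0.33, edgeR's adjusted p = 0.118). Rab21, which traffics beta-1 integrins, was lower without overlap (-0.53 ± 0.22, adjusted p = 0.290), and the membrane metalloproteinase Mmp14 overlapped (0.78 ± 0.34, adjusted p = 0.308).

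**Figure D5:**
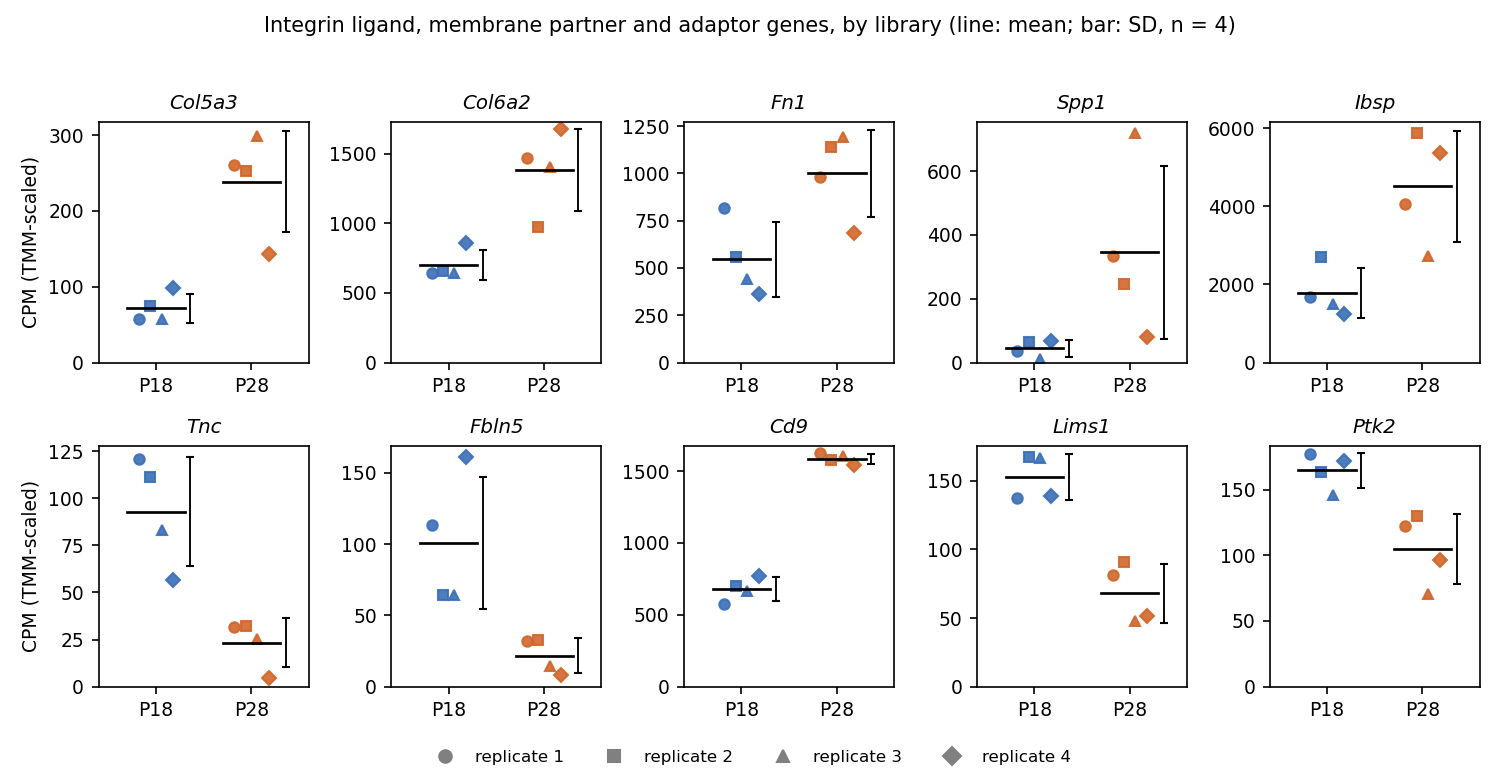
Level by library of 7 ligand genes, the tetraspanin Cd9 and the adaptors Lims1 and Ptk2 (y axis: CPM, from 0, with its own range in each panel; line: mean; bar: SD, n = 4). Of these 10, Col5a3, Col6a2 and Cd9 passed the edgeR test, and Cd9 shows the narrowest P28 group relative to its mean, from 1545 to 1623 CPM.

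Genes whose pattern over the 8 libraries was most like that of the 2 tested members with the lowest p were found by Pearson's r of log2 CPM among 7817 other genes with a mean of at least 3. For Itga11 these were Chpf2, a chondroitin polymerizing factor (r = 0.97), Ptprs, a receptor tyrosine phosphatase (0.96), and RGD1565033 (0.953). For Itgb5 they were Mfap2, a microfibril protein (0.98), Igf1 (0.968) and Lgals5, a galectin (0.961). The points share the 2 ages and the same 8 libraries, and the highest of 7817 correlations over 8 points is high by choice.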

How the data were processed

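The tools named, per the submitters' processing notes, were HTSeq 0.9.1, STAR 2.5.3a and edgeR 3.16.5, with build rn6; roles, annotation and strand setting: not given in the sources used here. Raw counts per gene symbol were deposited by the authors; 8 columns matched the samples, and 40 columns of other samples were not used, nor was the normalized table. Genes were tested with the edgeR 4.0.16 quasi-likelihood test in R 4.3.3 (2-sided; age as the only term; TMM scaling; expression filter by age, minimum count 10), with Benjamini-Hochberg adjustment over all 10472 tested genes. SE is the log2 fold change divided by the root of F. Log2 CPM used a prior count of 2, and ratios added 0.5 counts. The floor of a 0 is 3 counts. PCR copies without molecular identifiers are not independent, so floors cover counting error only.

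The fit was tested on simulated data. Alternatives were DESeq2 1.42.0 size factors and Wald test, upper-quartile scaling, limma 3.58.1 with voom and quality weights, other filters, a replicate block, and leaving out each library. The listed genes, pathway and marker lists, and alternatives were chosen with earlier results of these data known. Named genes were the listed ones, called genes and up to 4 with the lowest p per pathway list, 9 genes set by name (Npnt was not analysed here), and the most similar genes. Of each named gene, only the row with its own symbol was used.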

Additional observations from a re-analysis of the deposited data

Results flagged for a closer look

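Levels of 37 genes named here were examined in each age group for 1 library far from the other 3 (by Dixon's ratio of that gap to the group's range). Of the 74 groups 4 had one; chance gives about 5% of groups. Col6a2 lay at 861.2 CPM in P18 replicate 4 against 642.5 to 657 CPM in the other P18 libraries. Itga4 lay at 4.492 CPM in P28 replicate 2 against 0 to 0.5285 CPM in the others. Tgfbi had 1 such library at each age, at 432.5 CPM in P18 replicate 1 (others 200.6 to 231.4 CPM) and at 63.87 CPM in P28 replicate 4 (others 204.3 to 221.7 CPM). None of the 7 listed integrin genes with a row had such a library at either age.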

How the results depend on the processing

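The log2 fold changes of the 6 tested integrin genes stayed below 0 under all 15 alternatives run for each, and 1 call appeared: the DESeq2 Wald test called 1 listed gene lower, Itga11. Over all genes, against 54 higher and 44 lower, that test called 290 and 262, voom 175 and 132, and the fit with the replicate block 16 and 10; leaving out 1 library gave 4 to 110 higher and 5 to 105 lower, and 0 listed genes in either direction. The labels do not say that replicate numbers link animals of different age. Correlations of same-numbered deviations were -0.0028, -0.0196, -0.0128 and 0.0019, and 0 of 8 libraries correlated best with their own number. These values bear on the numbering alone and cannot show whether animals are linked in another way. Under the block the calls of Col5a3 and Col6a2 ended (edgeR adjusted p = 0.0710 and 0.0868). The direction of Fermt2 reversed without P18 replicate 2 (log2 fold change -0.020, and up to 0.097 leaving out another). Each difference in log2 ratio moved by less than the SD pooled within ages in every alternative run, but leaving out 1 library turned the sign for Itga1 (-0.85 to 0.11) and Itga5 (-0.52 to 0.07). Depth limits Itga8 in 3 libraries at 0 counts and Itgb3 in P28 replicate 4.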
